A study of Mus musculus with 3 samples.

Results

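The genes described here encode the proteasome: the alpha and beta subunits of its 20S core (Psma and Psmb), the ATPases and other subunits of its 19S cap (Psmc and Psmd) and its activators (Psme). Members were all UniGene clusters in the tables of mouse skin whose gene symbol begins with Psma, Psmb, Psmc, Psmd or Psme and a number, by exact match of their tags to reference transcripts or, for Psmd1, by the description. The rule found 49 clusters of 20595, which stand for 38 proteasome genes and for Psmc3ip, a recombination factor whose symbol follows the same pattern and which is counted apart. No cluster took the names Psma8, Psmb2, Psmb11, Psmc2 or Psmd14, so their levels are not analysed here.

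Whole skin was taken from male C57BL/6 mice aged 2 months that had been depilated 9 days before the injection, which starts a new hair growth phase. The day 0 library came from mice without cyclophosphamide, and the day 1 and day 2 libraries from mice 1 and 2 days after 150 mg/kg of this alkylating drug, given into the peritoneal cavity (printed as mg/km on the samples and mg/kg in the series text). Each time is 1 library, so no value has a replicate check, and the sources used here do not give the number of mice in a library. Treated skins were also 1 and 2 days further into hair growth than the untreated skin, so drug and time cannot be told apart.

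The proteasome degrades proteins that carry ubiquitin chains. The 19S cap binds and unfolds them, and the 20S core, a stack of alpha and beta rings, cuts them. Of the beta subunits, Psmb5, Psmb6 and Psmb7 carry the catalytic sites in most cells. Interferon-gamma, and the resting state of many leukocytes, bring in Psmb8, Psmb9 and Psmb10 in their place. The resulting immunoproteasome, with its activator of Psme1 and Psme2, cuts peptides for display on major histocompatibility complex (MHC) class I. In skin the proteasome serves keratinocytes, fibroblasts and resident leukocytes alike, and a bulk library sums them, so fewer cells of a type and less RNA per cell cannot be told apart.

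The tables count tags of 21 bases, each made of the cutting site CATG and the 17 bases after it. Tags that carry the comparison of immune and constitutive subunits are printed with the cutting site in capitals. Each is the most abundant tag of its gene, and their positions are on GRCm38 with GENCODE M21 annotation.
Psmb8: CATGaaggaagacggttgggt
Psmb9: CATGcccttccattcttttgt
Psmb10: CATGgaggtggaatgaagtgg
Psme1: CATGgagatccgaaatgctta
Psmb5: CATGgctataataaataatag
Psmb6: CATGgaacgcgacggctccag
Psme3: CATGtcaagaaattattaaaa

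All these tags lie at the CATG site nearest to the 3' end of the transcript. The Psmb8 tag is coding sequence of exon 6 of 6 (chr17:34201185-34201205, plus strand), and the Psmb9 tag is 3' UTR of exon 6 of 6 (chr17:34182067-34182087, minus strand). The Psmb10 tag spans the stop codon in exon 8 of 8 (chr8:105935789-105935809, minus strand). The Psme1 tag is coding sequence of exon 10 of 11 (chr14:55581117-55581137, plus strand) and also occurs in the gene model Gm7776, so the 2 cannot be separated. The Psmb5 tag is 3' UTR of exon 3 of 3 (chr14:54614130-54614150, minus strand), and the Psmb6 tag is coding sequence of exon 6 of 6 (chr11:70527450-70527470, plus strand). The Psme3 tag is 3' UTR of exon 11 of 11 (chr11:101323484-101323504, plus strand).

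Tags assigned to clusters numbered 2731787 at day 0, 2859653 at day 1 and 2636804 at day 2. Krt5, a marker of basal keratinocytes, was at 4711.7, 4973.8 and 5606.3 counts per 1000000 (CPM, after scaling between libraries). No keratinocyte marker was at 0, but their levels ranged widely. Krt10 was the highest at 6339.0, 9936.1 and 8440.9 CPM, and Krt1 the lowest at 5.33, 5.95 and 9.18. The 49 clusters together, with the few tags of Psmc3ip included, held 18763, 20829 and 17260 tags, or 6669.5, 7744.6 and 6339.8 CPM. Of the 49 clusters, 40 had the 15 tags over the 3 libraries that the test required, and they stand for 35 genes. The other 9 clusters, those of Psme2, Psmd2, Psmd3 and Psmc3ip and small second clusters of Psmb1, Psmb3, Psmb5 and Psmb7, were not tested. A transcript gives tags at its CATG sites whatever its length, so CPM were not divided by length. Levels of different genes still depend on which tags are listed: for 14 of the 38 genes the tag nearest to the 3' end of the reference transcript is not listed in these tables, and their levels rest on other tags.

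**Figure D1:**
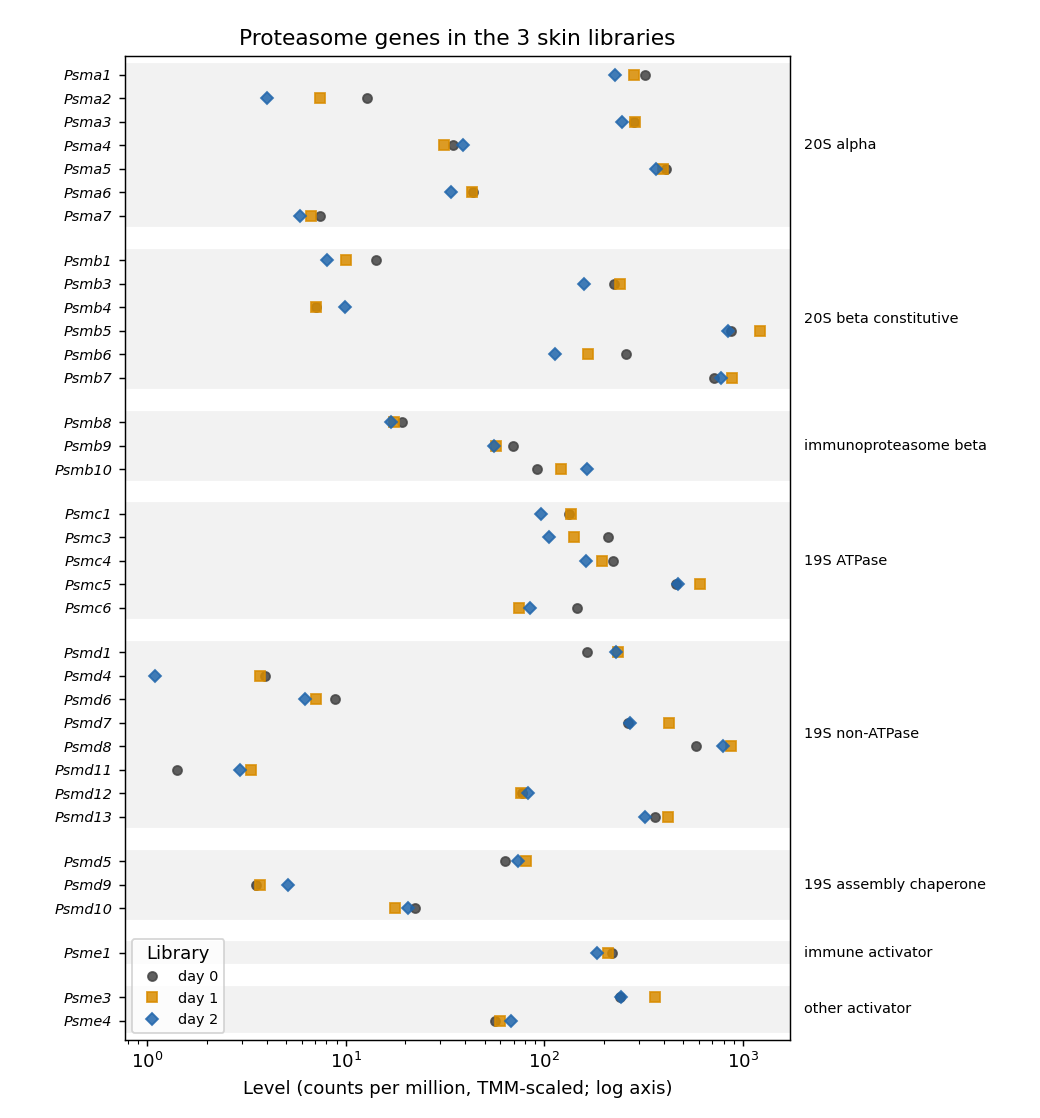
Level in CPM (log axis) of the 35 tested proteasome genes in each of the 3 libraries, grouped by their place in the complex; each point is 1 library. Psmb5, Psmb7 and Psmd8 lie highest, Psmb6 steps down over the 3 libraries and Psmb10 steps up.

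A gene was called where 2 libraries differed at least 2-fold with an adjusted p of 0.001 or less (two-sided exact binomial test of the tags of 2 libraries, Benjamini-Hochberg over 13812 clusters). The test compares libraries, not conditions. At day 1, 0 of 40 proteasome clusters were called higher and 0 lower, where 1.54% and 1.39% of all clusters were. At day 2 over day 0, 0 were called higher and 1 lower, against backgrounds of 3.44% and 3.08%. At day 2 over day 1, 0 were called higher and 0 lower, against 1.82% and 1.13%. These counts are near what the background shares would give for 40 clusters.

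Without the 2-fold minimum, a rule added after the data were seen, more members passed the same adjusted p. At day 1 over day 0, 7 of 40 were higher, where 5.98% of all clusters were, and 3 were lower, where 5.18% were. At day 2 over day 0, 3 were higher (background 7.35%) and 7 lower (7.91%). At day 2 over day 1, 1 was higher (4.60%) and 10 were lower (5.34%). Proteasome genes are well counted, which bears on how often a small difference passes. Among the 24 members with 300 tags or more, 41.7%, 41.7% and 45.8% passed in the 3 comparisons in either direction, beside 29.7%, 35.7% and 25.7% of all 4310 such clusters.

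The member called was Psmb6, which encodes the constitutive subunit with caspase-like activity. It was counted with 726, 447 and 306 tags, or 258.1, 166.2 and 112.4 CPM. The treated libraries were both below day 0, and day 2 was the lowest. Its log2 ratio was -0.63 at day 1 (95% exact interval -0.81 to -0.46) and -1.20 at day 2 (-1.4 to -1.0, adjusted p = 3.2e-35, exact binomial test). Nearly all its tags (95.5%) came from the site whose sequence is printed above. That tag has 70.6% G and C, and tags rich in G and C ran slightly low at day 2: the median log2 ratio of clusters with 9 to 17 G or C in the 17 bases was -0.11, against 0.12 for those with 0 to 5. Set against clusters of the same tag composition, an alternative added after seeing the data, Psmb6 had a log2 ratio of -1.11 at day 2 and was still called.

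The other catalytic subunits of the constitutive core were not called at either day. Psmb5, the chymotrypsin-like subunit and the best counted member, had 2438, 3271 and 2295 tags (866.6, 1216.2 and 843.0 CPM). Day 1 stood above both other libraries, with a log2 ratio to day 0 of 0.49 (0.41 to 0.57), and day 2 was back at -0.04 (-0.12 to 0.04). Psmb7, the trypsin-like subunit, had 2006, 2353 and 2109 tags (713.1, 874.9 and 774.7 CPM). Its log2 ratios to day 0 were 0.30 (0.21 to 0.38) at day 1 and 0.12 (0.03 to 0.21) at day 2. Neither reached 2-fold. The Psmb5 tag is poor in G and C (17.6%), and against clusters of the same composition its log2 ratio at day 2 was -0.35 in place of -0.04.

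Among the immune subunits, Psmb10 was the one with more tags after cyclophosphamide. Psmb10, which takes the place of Psmb7, had 259, 324 and 448 tags, or 92.1, 120.5 and 164.6 CPM. Each library was above the one before it. The log2 ratio was 0.39 (0.15 to 0.63) at day 1 and 0.84 (0.61 to 1.06, adjusted p = 9.2e-13, exact binomial test) at day 2, which is under 2-fold, so Psmb10 was not called. Over all scalings and tag choices tried, the day 2 value lay between 0.80 and 0.93. Of its tags, 99.7% came from the printed site, so the value rests on 1 tag.

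Psmb8 and Psmb9 did not share this pattern. Psmb8, the counterpart of Psmb5, had 54, 47 and 46 tags (19.2, 17.5 and 16.9 CPM) and log2 ratios to day 0 of -0.13 (-0.73 to 0.46) and -0.18 (-0.78 to 0.41). Its intervals span 0 at both days, so no difference was detectable at this depth. Psmb9, the counterpart of Psmb6, had 196, 154 and 152 tags (69.7, 57.3 and 55.8 CPM). Its log2 ratios were -0.28 (-0.60 to 0.03) and -0.32 (-0.63 to -0.01), with adjusted p of 0.20 and 0.12 by the exact binomial test.

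Psme1, a subunit of the interferon-inducible activator, had 618, 560 and 503 tags (219.7, 208.2 and 184.8 CPM). Its log2 ratios were -0.08 (-0.24 to 0.09) and -0.25 (-0.42 to -0.08, adjusted p = 0.017, exact binomial test), short of the call. Psme2, its partner, had 7, 3 and 4 tags and was below the minimum for the test. Its tag nearest to the 3' end is not listed in these tables, and its low level is therefore no measure of its RNA. Psme1 and Psme2 lie 5911 bases apart on chromosome 14 on opposite strands.

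Of the other activators, Psme3 stood apart at day 1. Psme3, a nuclear activator that works without ubiquitin, had 673, 973 and 664 tags (239.2, 361.8 and 243.9 CPM). Its log2 ratio was 0.60 (0.45 to 0.74) at day 1 and 0.03 (-0.13 to 0.18) at day 2, so that only the day 1 library stood apart from the other 2. Its tag holds 11.8% G and C, and against clusters of the same composition the values were 0.33 and -0.31. Psme4, the large activator known from spermatogenesis and DNA repair, had 159, 161 and 185 tags (56.5, 59.9 and 68.0 CPM), with log2 ratios of 0.08 (-0.24 to 0.41) and 0.27 (-0.05 to 0.58).

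**Figure D2:**
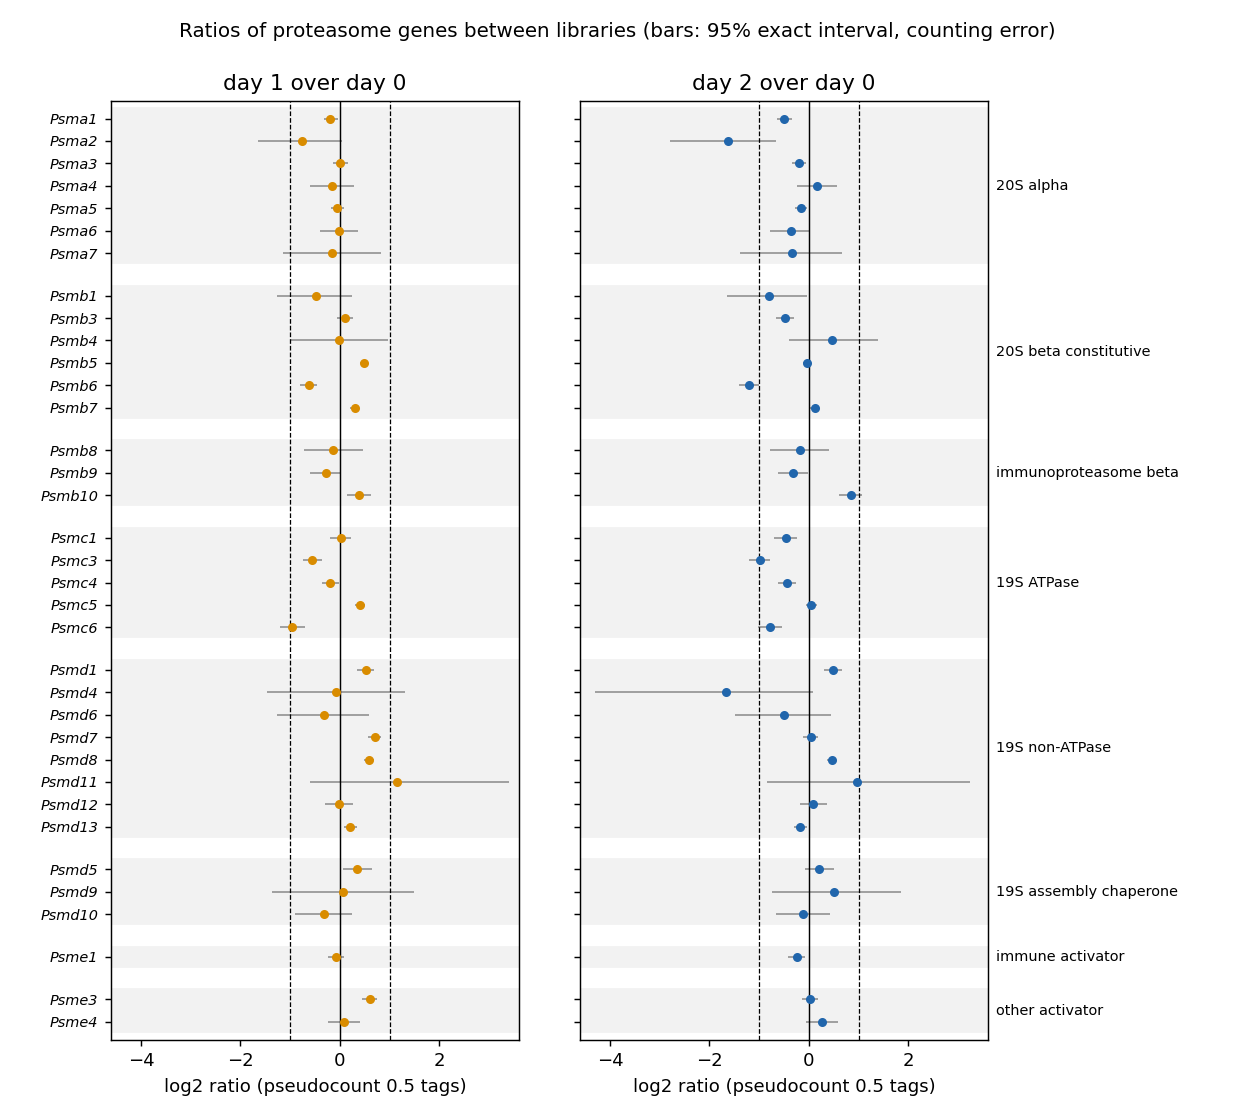
Log2 ratio of each tested proteasome gene to day 0, at day 1 and day 2; bars are 95% exact intervals for counting error and dashed lines mark 2-fold. Psmb6 at day 2 is the member past 2-fold with a narrow interval, and the wide bars belong to genes with few tags.

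The share of the immune subunit in each catalytic pair needs no scaling between libraries. Psmb10 made up 11.4% of the tags of Psmb10 and Psmb7 at day 0 (95% Wilson interval 10.2 to 12.8, counting error only), 12.1% at day 1 (10.9 to 13.4) and 17.5% at day 2 (16.1 to 19). The day 2 interval lies above the other 2. Psmb9 made up 21.3% of the tags of Psmb9 and Psmb6 at day 0 (18.7 to 24.0), 25.6% at day 1 (22.3 to 29.3) and 33.2% at day 2 (29 to 37.6). The day 2 interval lies above that of day 0. Psmb9 itself went from 196 tags to 152, and Psmb6 from 726 to 306. Psmb8 made up 2.17% of the tags of Psmb8 and Psmb5 at day 0 (1.66 to 2.82), 1.42% at day 1 (1.07 to 1.88) and 1.96% at day 2 (1.48 to 2.61), and these intervals overlap. The counts behind the 3 shares were thus not alike. At day 2 the immune member of the Psmb10 pair had more tags than at day 0, and both members of the Psmb9 pair had fewer. Those of the Psmb8 pair lay within their counting error. Paired tags differ in G and C: Psmb8 52.9% and Psmb5 17.6%, Psmb9 41.2% and Psmb6 70.6%, Psmb10 52.9% and Psmb7 47.1%. The shares were not adjusted for this composition. Against clusters of the same composition, the log2 ratio of Psmb5 at day 2 was -0.35.

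**Figure D3:**
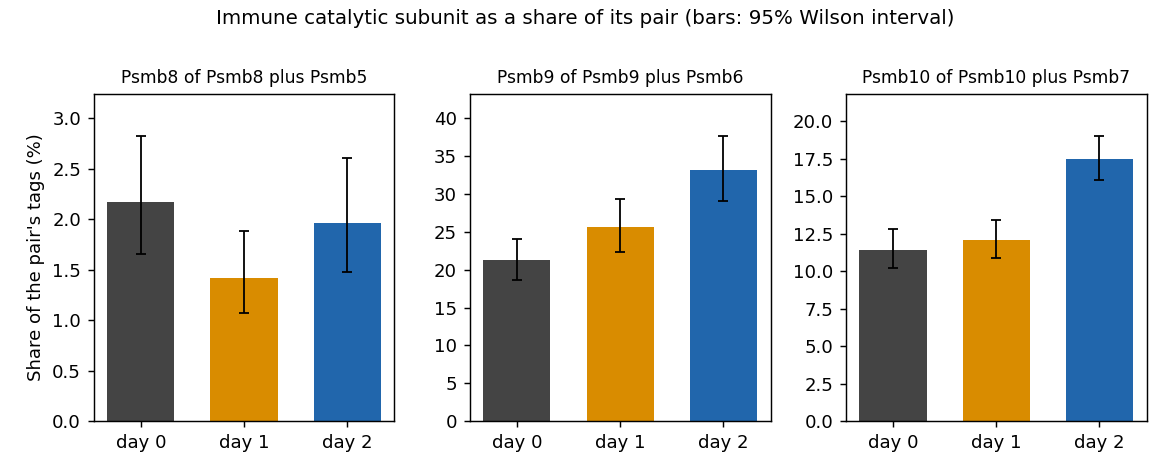
Immune subunit as a percentage of the tags of its pair in each library; bars show 95% Wilson intervals for counting error, and each panel has its own axis from 0. The share of Psmb9 goes from 21.3% to 33.2% and that of Psmb10 from 11.4% to 17.5%, while that of Psmb8 stays between 1.42% and 2.17%.

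Psmb8 and Psmb9 sit in the MHC class II region of chromosome 17 beside Tap1, which encodes a subunit of the peptide transporter that loads class I molecules. Psmb9 (chr17:34181987-34187764, minus strand) and Tap1 (chr17:34187553-34197225, plus strand) overlap by 212 bases at their starts, and Psmb8 begins 495 bases after Tap1 ends. Tap1 had 185, 148 and 94 tags (65.8, 55.0 and 34.5 CPM), with log2 ratios to day 0 of -0.26 and -0.93, the latter short of 2-fold. All 3 neighbours had fewer CPM than at day 0 in both treated libraries. At day 1 the intervals of all 3 span 0 (-0.58 to 0.06 for Tap1), and at day 2 only Tap1 passed the adjusted p (2.5e-06, exact binomial test, without the fold minimum). Psmb10, on chromosome 8, had more CPM than at day 0 in both.

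Lists of known interferon targets were read beside the immune subunits. Of 12 tested genes of the type I interferon antiviral list, 8 were called higher at day 1 and 2 at day 2, with median log2 ratios of 1.87 and 0.56. Ifit3, an antiviral effector, had 22, 233 and 79 tags and a log2 ratio of 3.44 at day 1, and Isg15, a ubiquitin-like modifier, had 47, 253 and 65 tags and 2.48. Of 12 tested genes of the interferon-gamma type list, 3 were called higher at day 1 and 2 at day 2, with median log2 ratios of 0.56 and 0.65. Irgm2, an immunity-related GTPase, had 41, 117 and 104 tags, with log2 ratios of 1.57 and 1.38 and a call at both days. The 4 tested immune proteasome members had medians of -0.11 and -0.22 and none was called, beside medians of -0.02 and 0.01 over all clusters. With exact tags alone (those that match 1 reference gene exactly) these medians turned to 0.12 and 0.31, where most tags of Psme1 drop out. Of 9 tested genes of class I antigen processing none was called at either day. Among them B2m had 7, 3 and 5 tags, H2-K1 14, 24 and 21 and H2-D1 23, 24 and 21. At this depth only a large difference could be called, so the lack of a call does not show that these genes were unchanged. Calr, a chaperone of the loading complex, had 2384, 4466 and 3568 tags and log2 ratios of 0.97 and 0.63. Calr, Tap1, B2m, H2-K1 and H2-D1 were named after their values were seen. These lists and members share the day 0 library, and the difference between them was not tested.

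**Figure D4:**
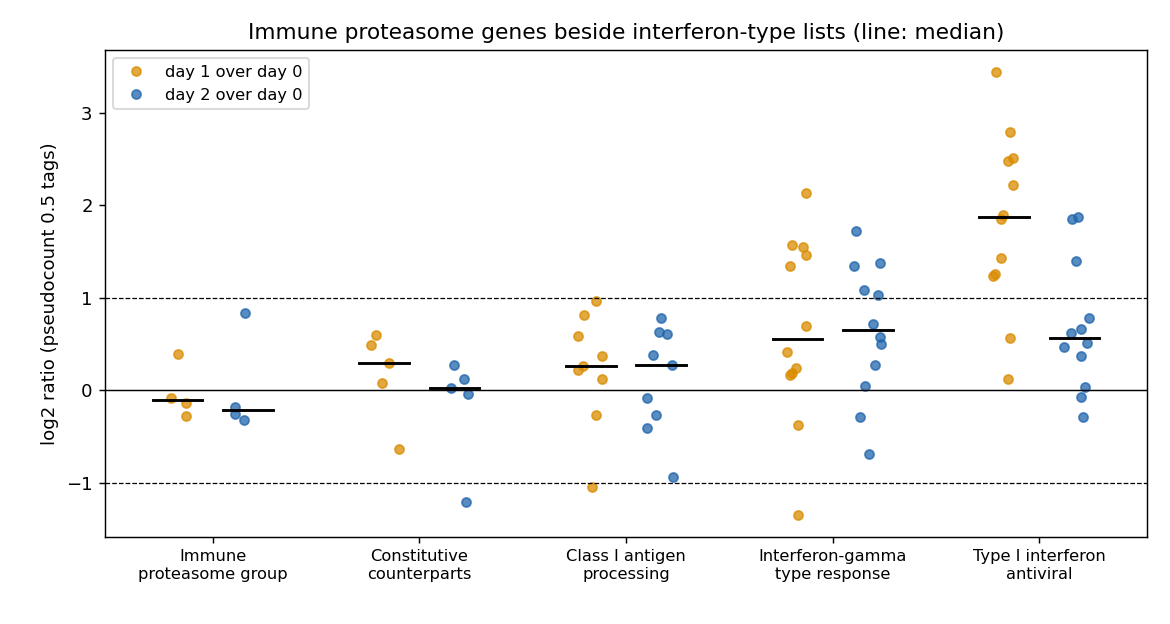
Log2 ratios to day 0 of the tested genes of the immune proteasome group, of Psmb5, Psmb6, Psmb7, Psme3 and Psme4, and of 3 gene lists, at day 1 and day 2; each point is a gene, short lines are medians and dashed lines mark 2-fold. The type I interferon genes have a median of 1.87 at day 1, and the immune proteasome group a median of -0.11 (0.12 with exact tags alone).

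Promoter windows of 300 bases (250 before to 50 after the start, RefSeq, GRCm38.p6) were searched on both strands for 3 motif cores. Of the genes whose symbols follow the rule, 37 had a window, among them genes with no cluster, such as Psmb11 and Psmc2. The interferon-stimulated response element core (GAAA, any 2 bases, GAAA) was found in 4 of them (Psmb3, Psmd4, Psmd9 and Psme1), while 3.44% of all 32851 windows held it. The gamma-activated site core, TTCNNNGAA, was found in 2 (Psmb8 and Psmd2), beside 8.3% of all windows. The antioxidant response element core, TGANNNNGC, was found in 22 of the 37, Psmb5 and Psmb6 among them, beside 41.34% of all windows. Members were counted by gene, with a match in any window of the gene, whereas the background counts single windows. The member counts and the background shares therefore cannot be compared directly. The matches of Psme1 and Psmb8 and 1 of the 2 in Ifit1 are printed with the match in capitals; they describe letters in a window and not binding.
Psme1: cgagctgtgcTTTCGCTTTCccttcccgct
Ifit1: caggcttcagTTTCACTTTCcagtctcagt
Psmb8: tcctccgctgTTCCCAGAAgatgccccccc

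These stretches are at chr14:55578493-55578522 (Psme1), chr19:34640775-34640804 (Ifit1) and chr17:34198088-34198117 (Psmb8), all shown on the plus strand. The matches of Psme1 and Ifit1 are on the minus strand, so their capitals are the reverse complement of the core. The core matched in Psmb8 is its own reverse complement, so that match lies on both strands. Ifit1, with 20, 135 and 30 tags, was called higher at day 1 (log2 ratio 2.79), while Psme1 and Psmb8 were not called.

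Leukocytes express Psmb8, Psmb9 and Psmb10 at high levels, so leukocyte markers were read beside them. Of 8 genes of the general leukocyte list 6 were listed, with summed levels of 102.4, 127.2 and 285.0 CPM, and all 5 tested were called higher at day 2 (Ptprc, Coro1a, Cd53, Cd37 and Rac2). Ptprc, which encodes CD45, had 33, 17 and 78 tags, and Laptm5 was listed in the day 2 table alone, with 5 tags. Of 12 macrophage symbols, with Emr1 an older name of Adgre1, 9 were listed, with summed levels of 269.8, 242.4 and 491.8 CPM. Of these, 4 were called higher at day 2, Mrc1, Fcgr1, Ms4a7 and C1qc. Mrc1 had 162, 134 and 465 tags. Other members of this list were not higher: Lyz1 had 155, 90 and 90 tags (log2 ratio -0.73 at day 2, lower without the fold minimum) and Adgre1 84, 43 and 72 (-0.17). T and NK cell genes stayed low, with 6 of 11 listed at summed levels of 14.6, 11.9 and 12.1 CPM and Cd4 at 0 at days 1 and 2. Dendritic and Langerhans cell genes had 0 of 3 tested called, with summed levels of 22.4, 24.9 and 22.4 CPM. B cell genes were near 0 (2 of 6 symbols listed, with Igj an older name of Jchain, and at most 1.86 CPM summed). Psmb10 was thus higher in the library where the 5 tested leukocyte genes and 4 of 9 macrophage genes were called higher, and Psmb8 and Psmb9 were not; the part of these cells in the Psmb10 value was not tested. Red cell genes were lower at day 2, with 4 of 4 tested called and summed levels of 1811.8, 1625.2 and 141.8 CPM. Skeletal muscle genes had summed levels of 8057.3, 12406.1 and 17207.9 CPM, with 4 of 7 called higher at day 1 and 5 of 7 at day 2. Skin epidermis genes had 0 of 7 called at either day, with median log2 ratios of 0.17 and 0.21. Dermal fibroblast genes had summed levels of 2949.6, 1875.8 and 3268.4 CPM, with median log2 ratios of -0.46 at day 1 and 0.41 at day 2; 2 of 6 were called higher at day 2 (Lum, 1.16, and Pdgfra, 1.31), and Col1a2 had -0.92 at day 1. Their part in the proteasome values was not tested.

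The alpha subunits, which form the gate of the core, differed little. Their 8 tested clusters had median log2 ratios of -0.10 at day 1 and -0.27 at day 2, with 7 of 8 below 0 at day 2, beside a median of 0.01 over all clusters. The day 2 median lay between -0.27 and -0.23 under the scalings tried, and was -0.35 with exact tags alone (6 clusters) and -0.18 with the tag nearest to the 3' end alone (3 clusters). Psma1 had 903, 759 and 619 tags (321.0, 282.2 and 227.4 CPM), each library below the one before it, and its log2 ratio at day 2 was -0.50 (-0.65 to -0.35, adjusted p = 5.3e-10, exact binomial test). Psma5, the best counted alpha subunit, had 1147, 1062 and 991 tags and log2 ratios of -0.05 and -0.16. Its tag also occurs in Gm8394. Psma3 had 792, 764 and 667 tags, with log2 ratios of 0.01 and -0.20. Psma6 had 123, 116 and 92 tags and log2 ratios of -0.02 and -0.37. Psma4 had 98, 84 and 106 tags, with -0.16 and 0.16, and its main tag also occurs in Gm6542. Psma7 had the fewest tags over the 3 libraries together, 21, 18 and 16. Psma2, named after its values were seen, had 36, 20 and 11 tags and a log2 ratio of -1.62 at day 2 (-2.79 to -0.66, adjusted p = 0.0022, exact binomial test), past 2-fold but short of the threshold on p.

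Of the structural beta subunits, Psmb3 had 627, 645 and 432 tags (222.9, 239.8 and 158.7 CPM), so that day 2 alone was low. Its log2 ratio to day 0 was 0.11 at day 1 and -0.49 (-0.67 to -0.31) at day 2; its tag also occurs in 3 other gene models. Psmb4 had 20, 19 and 27 tags and Psmb1, which the rule for named genes leaves out, 40, 27 and 22, too few for a narrow interval. The 8 constitutive beta clusters had medians of -0.05 and -0.30 and ranged from -1.46 to 0.47 at day 2.

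The ATPases of the 19S cap form the ring that unfolds substrates and opens the gate. Their 5 members had median log2 ratios of -0.19 and -0.47. With the tag nearest to the 3' end alone, the day 2 median was -0.20 (5 clusters). Of the 5 members, 4 passed the adjusted p at day 2 without the fold minimum, all lower. By the same rule 7.91% of all clusters were lower, and 840 of the 4310 with 300 tags or more, a depth that all 5 ATPases reach. Psmc3 had 586, 380 and 286 tags (208.3, 141.3 and 105.1 CPM), again stepping down, with log2 ratios of -0.56 (-0.75 to -0.37) and -0.99 (-1.20 to -0.78, adjusted p = 5.9e-21, exact binomial test), just short of 2-fold. With the tag nearest to the 3' end alone it was -1.05 and would be called; against clusters of the same tag composition it was -0.86. Psmc1 had 375, 364 and 261 tags, with 0.02 and -0.47, and its main tag also occurs in 2 other gene models. With exact tags alone, which leaves that tag out, its direction at day 2 turned, to 0.31 (adjusted p = 0.58, exact binomial test), and scaled to all kept tags its adjusted p at day 2 was 0.0012, so its place among the 4 rests on the shared tag and on the scaling. Psmc4, named after its values were seen, had 620, 521 and 440 tags, with -0.19 and -0.45. Psmc5 went the other way at day 1: it had 1284, 1626 and 1285 tags (456.4, 604.6 and 472.0 CPM) and log2 ratios of 0.41 (0.30 to 0.51) and 0.05 (-0.06 to 0.16).

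Psmc6 had 409, 201 and 231 tags (145.4, 74.7 and 84.8 CPM), and both treated libraries lay well below day 0. Its log2 ratios were -0.96 (-1.21 to -0.71, adjusted p = 8.9e-14, exact binomial test) and -0.78 (-1.02 to -0.54). Scaled to all kept tags or to all tags assigned to genes, the day 1 value was -1.03 or -1.09 and was called. Its tags come from a pair of sites in the 3' UTR of the last exon, 14 of 14, which are printed because they gave different values.
Psmc6 site 5: CATGtttggtgatgttgcatt
Psmc6 site 1: CATGtggcaatcaaaagttgt

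Sites are numbered from the 3' end. The site 5 tag (chr14:45348874-45348894, plus strand, 811 bases before the transcript end) was counted 270, 116 and 112 times. Its log2 ratios were -1.15 (-1.48 to -0.83) and -1.22 (-1.55 to -0.90). The site 1 tag (chr14:45349585-45349605, 100 bases before the end) was counted 120, 78 and 103 times, with -0.55 (-0.99 to -0.13) and -0.17 (-0.57 to 0.22). Both tags hold 35.3% G and C. At day 2 the intervals of the 2 sites do not overlap, so the value of the gene depends on which site is read.

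The non-ATPase subunits, which include the ubiquitin receptors and the lid, had 9 tested clusters with median log2 ratios of 0.21 and 0.04. Psmd8, a lid subunit and the best counted 19S gene, had 1622, 2328 and 2160 tags (576.6, 865.6 and 793.4 CPM), with both treated libraries above day 0 and log2 ratios of 0.59 (0.49 to 0.68) and 0.46 (0.37 to 0.55). Psmd7, the lid partner of the deubiquitinase, had 737, 1141 and 732 tags (262.0, 424.2 and 268.9 CPM). It stood apart at day 1 alone, with 0.70 (0.56 to 0.83) and then 0.04 (-0.11 to 0.19). Psmd1, a scaffold of the base, had 463, 634 and 626 tags and log2 ratios of 0.52 (0.34 to 0.69) and 0.48 (0.31 to 0.66). Psmd13, a lid subunit named after its values were seen, had 1017, 1127 and 871 tags, with 0.21 and -0.18. The main tag of Psmd13 also occurs in Gm7419, and with exact tags alone its direction at day 1 turned. Psmd12, also of the lid, had 218, 206 and 225 tags, with -0.02 and 0.09, and the lid subunit Psmd11 had the fewest tags of the tested genes over the 3 libraries together, 4, 9 and 8. Psmd4, the ubiquitin receptor, had 11, 10 and 3 tags and Psmd6 25, 19 and 17, and neither had an adjusted p under 0.15 by the exact binomial test.

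The assembly chaperones of the cap leave once it is built. None of their 4 tested clusters passed the adjusted p without a fold minimum. By the same rule 11.2% of all clusters passed at day 1 over day 0 and 15.3% at day 2 over day 0. The count for the chaperones is near what these shares would give. Psmd5 had 179, 218 and 201 tags, with log2 ratios of 0.35 (0.06 to 0.64) and 0.21 (-0.08 to 0.51). Psmd10, also known as gankyrin, had 63, 48 and 56 tags and Psmd9 10, 10 and 14. The 2 tags of Psmd10 differed in sign: its site 1 tag was counted 51, 27 and 30 times (log2 ratio -0.71 at day 2, -1.42 to -0.04) and its site 3 tag 10, 16 and 24 times (1.27, 0.19 to 2.54).

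Other genes also had minor tags that differed from the main one. For Psmd1 the higher count came from its site 1 tag, counted 363, 549 and 532 times (0.66 and 0.60), which matches no GENCODE M21 transcript exactly, while its site 2 tag, in exon 19 of 25, was counted 85, 74 and 84 times (-0.13 and 0.03). For Psmd7 the site 1 tag had 666, 1061 and 665 copies (0.74 at day 1, 0.60 to 0.88) and the site 6 tag 44, 35 and 36 (-0.26, -0.95 to 0.41). For Psme3 the site 1 tag was counted 522, 820 and 551 times (0.72, 0.56 to 0.88) and the site 11 tag 82, 106 and 80 times (0.43, 0.01 to 0.87), both above 0 at day 1. Its less counted site 2 tag had 32, 18 and 6 copies (-0.75, -1.69 to 0.11) and its site 3 tag 31, 17 and 21 (-0.78, -1.75 to 0.10). For Psmb6 the minor site 3 tag, with 21, 10 and 15 copies, had a wide interval at day 2 (-0.43, -1.50 to 0.59).

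**Figure D5:**
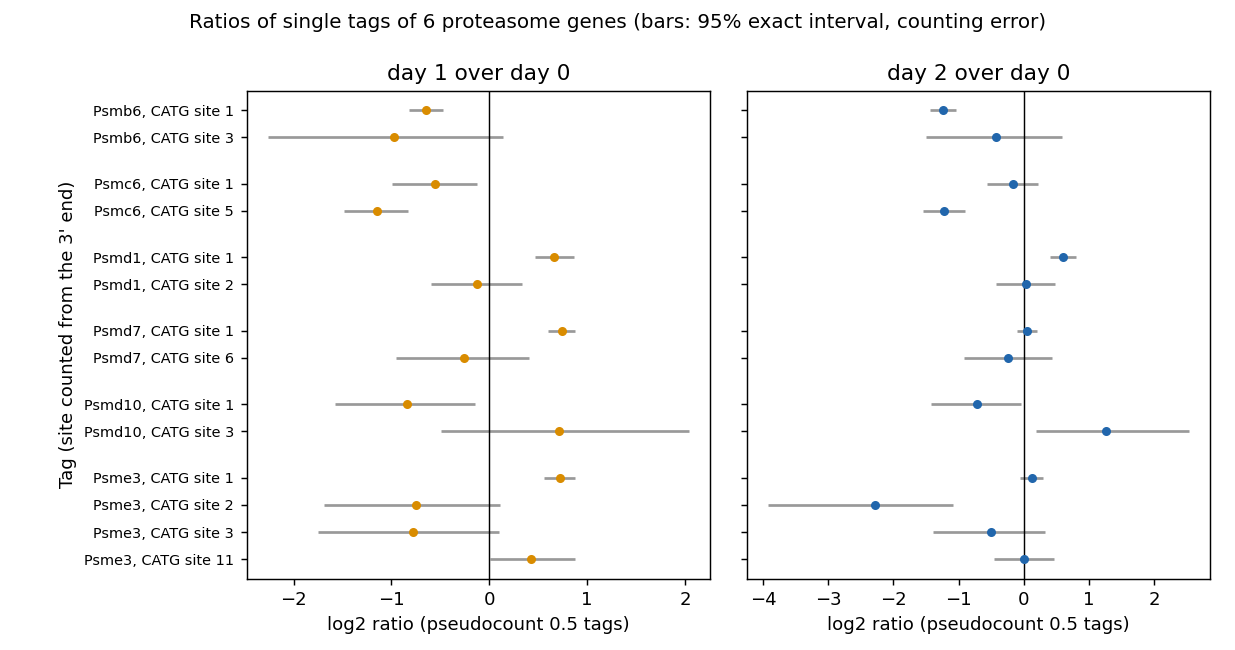
Log2 ratio to day 0 of single tags of 6 proteasome genes at day 1 and day 2, with sites numbered from the 3' end; bars are 95% exact intervals for counting error. The 2 tags of Psmc6 at day 2 (-1.22 and -0.17) and of Psmd10 at day 2 (-0.71 and 1.27) have intervals that do not overlap.

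Between the treated libraries, 32 of 40 tested members were lower at day 2 than at day 1, against 7007 of all 13812 clusters, and the median log2 ratio was -0.18 beside -0.02. The median was -0.07 with the libraries scaled to all kept tags and -0.05 with the tags assigned to genes. These scalings move the median of all clusters by 0.11 and 0.13. Among the 24 members with 300 tags or more, 20 were lower, with a median of -0.24. Of all 4310 such clusters 2517 were lower, with a median of -0.09. Psmb5 (-0.53, -0.61 to -0.45), Psmd7 (-0.66, -0.79 to -0.52), Psme3 (-0.57, -0.71 to -0.43) and Psmc5 (-0.36, -0.46 to -0.25) were lower at day 2 than at day 1. Psmb10 was the member past the adjusted p, without the fold minimum, in the other direction (0.45, 0.24 to 0.66, adjusted p = 0.00022, exact binomial test).

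Genes that build, regulate or supply the proteasome were read from lists of partners. The 16 tested proteasome partners had median log2 ratios of -0.12 at day 1 and -0.33 at day 2. Of them 0 were called at day 1, and 1 was called lower at day 2, Akirin2, which carries proteasomes into the nucleus. It had 550, 415 and 240 tags (195.5, 154.3 and 88.2 CPM) and a log2 ratio of -1.15 (adjusted p = 5.1e-25, exact binomial test). Nfe2l1, the transcription factor that induces proteasome genes when degradation is impaired, had 722, 986 and 1146 tags (256.6, 366.6 and 420.9 CPM), with log2 ratios of 0.51 and 0.71, below 2-fold. Adrm1, a ubiquitin receptor of the cap, had 958, 1362 and 1113 tags, with 0.57 and 0.26. Txnl1, a thioredoxin-like protein bound to the cap, had 178, 93 and 106 tags, with -0.87 and -0.70, and Ddi2, the protease that activates Nfe2l1, had 216, 114 and 143, with -0.85 and -0.55. Of 11 tested genes of ubiquitin supply and delivery, 0 were called at either day, and the medians were 0.14 and -0.32. Vcp, the ATPase that extracts proteins for degradation, had 1364, 2070 and 1787 tags, with 0.67 and 0.44. Ubqln4, a shuttle for ubiquitinated proteins, had 120, 62 and 74 tags, with -0.88 and -0.65. At day 1, these 6 genes all passed the adjusted p without the fold minimum. Nfe2l1, Adrm1 and Vcp were higher, and Txnl1, Ddi2 and Ubqln4 lower. Rad23b (0.40) and Nsfl1c (0.32) also passed, both higher. All were named after their values were seen. By this rule 11.2% of all clusters passed at day 1 in either direction, and 29.7% of those with 300 tags or more. At day 2 Nsfl1c was at -0.46 and lower by the same rule.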

How the data were processed

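Total RNA of whole skin was read as tags next to NlaIII sites (CATG) at the 3 times, 1 library each. Per the file headers, the authors deposited raw counts of tags per UniGene cluster and per tag, and TPM values (the same counts per 1000000 of the 6030061, 6070115 and 5666100 tags they kept), which were used only to derive those totals. The tables hold 45.3%, 47.1% and 46.5% of them; no tag has fewer than 2 copies, and absence from a table is therefore not proof of 0 tags. Aligner, mismatches allowed and build: not given in the sources used here.

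Clusters were named by exact match of tags to GENCODE M21 transcripts: a gene needed 80% of the matched and 50% of all tags of the cluster. Of 20595 clusters, 15163 were named by tags of 1 gene, 684 by tags shared with copies and 195 by RefSeq accession. Counts were scaled by edgeR 4.0.16 TMM (R 4.3.3; factors 1.03, 0.94 and 1.03). edgeR's quasi-likelihood test needs replicates, so a two-sided exact binomial test (scipy 1.17.1) compared 2 libraries, with Benjamini-Hochberg adjustment over 13812 clusters with 15 or more tags; the script was tested on simulated data. Log2 ratios carry a pseudocount of 0.5 tags. Intervals are exact for ratios and Wilson for shares, at 95%, and cover counting error only: reads after PCR without molecular identifiers are not independent molecules. Where a gene has several clusters, values are those of the cluster with most tags. Sites are numbered from the 3' end, as deposited.

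The members and lists were chosen with earlier results of these data known. Named members are the immune group and its counterparts, every member called, and in each other class the 3 with the largest ratio at each day among those at 20 CPM or more and the highest and lowest, plus, from each list, called genes with at most 4 values. Alternatives covered scaling (DESeq2 1.42.0 size factors among them), minimum counts, tag choice, assumed variation, pseudocount and tag composition. The rule without a fold minimum, the summed clusters of a gene and the tag composition were added after the data were seen.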

Additional observations from a re-analysis of the deposited data

How the results depend on the processing

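No paired analysis was possible because each group has 1 library. The number of members called lower at day 1 went from 0 to 1 (Psmc6) when libraries were scaled to all kept tags, and to 1 when scaled to tags assigned to genes. At day 2 over day 0 it went from 1 to 2 with the tag nearest to the 3' end alone (Psmc3 joined) and to 2 with tag composition taken into account (Psma2 joined, -1.93, adjusted p = 0.00019, exact binomial test). With edgeR's exact test (adjusted p of 0.05) and a coefficient of variation among replicates set to 0.2 or 0.4 it was 0 and 0, where 0.688% and 0.00724% of all clusters were called lower, and the adjusted p of Psmb6 was 0.13 and 1.0. With 1 library per time the variation between skins was not measured. Without the fold minimum, members past the adjusted p numbered 7 higher and 3 lower at day 1, 3 and 7 at day 2, and 1 and 10 between the treated libraries. The median over all members moved from -0.02 to 0.12 at day 1 with the tag nearest to the 3' end alone (24 clusters), where the cause was not tested, and between the treated libraries from -0.18 to -0.07 (all kept tags) and -0.05 (tags assigned to genes), which shift the median of all clusters by 0.11 and 0.13. The other class medians stayed within the spread of their members, but that spread is too wide to show that they were stable. At day 1 the constitutive beta median ranged from -0.49 to 0.22 over the settings, and the 19S non-ATPase median from 0.0 to 0.49. The ATPase median at day 2 ranged from -0.48 to -0.20. The 9 pair shares stayed within their intervals with exact tags and with the tag nearest to the 3' end, and were not adjusted for tag composition. The median of the 4 immune members changed sign with exact tags alone, to 0.12 at day 1 and 0.31 at day 2, where most tags of Psme1 drop out. Psmb6 at day 2 kept log2 ratios between -1.27 and -1.11 over all settings. Genes with fewer than 60 tags per library, such as Psma2, Psmb8 and Psmd4, are limited by depth.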

Other observations

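Several proteasome genes were split over clusters that the tables hold separately. Psmd12 had a main cluster of 218, 206 and 225 tags and a second of 69, 68 and 53, Psma3 a second of 56, 56 and 47 tags beside 792, 764 and 667, and Psmd5 a second of 21, 18 and 17 beside 179, 218 and 201. Psmb1 had 4 clusters, the largest of 40, 27 and 22 tags and the next of 18, 14 and 6. In all, 8 of the genes had more than 1 cluster, and summing the clusters of a gene changed no call among the members.

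Psmd2, a scaffold of the cap, was not listed at day 0 and had 8 tags at day 1 and 4 at day 2. Psmd3, a lid subunit, was counted 3 times in the day 0 table, 4 times in that of day 2, and was not listed at day 1. Psmc3ip, the recombination factor, had 3 tags at day 1 and 2 at day 2. Foxn1, a transcription factor of hair follicle and thymus epithelium that was on the list for the thymus-specific subunit Psmb11, had 250, 289 and 173 tags, with log2 ratios to day 0 of 0.27 and -0.48.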
